A study of Mus musculus with 12 samples.

Results

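Mouse embryonic stem (ES) cells without Hdac1 and with a single intact allele of Hdac2 were compared after 4 days without leukaemia inhibitory factor (LIF) and with LIF. The comparison used 6 of the 12 arrays of the series, 3 without LIF and 3 with LIF, chosen by their titles, and described all 9527 genes that could be measured. The cells were E14, a male line of strain 129/Ola, grown without feeder cells on a gelatin coat in serum-containing medium. Both groups carried the genotype written HDAC1-/-; HDAC2-/wt with CreER, a Cre recombinase that is active once the oestrogen receptor ligand 4-hydroxytamoxifen (OHT) is given, and both were taken on day 4 after OHT at 1 uM for 16 h. They are called deleted cells here. The Hdac2 allele that stayed intact limits them as a model of losing both enzymes. The other 6 arrays were wild type cells of day 0, again 3 without LIF and 3 with LIF, and they carried the OHT label too, so genotype and day could not be told apart. The labels do not say that the 3 arrays of each group were separate cultures, so the p-values measure only the spread between these arrays, which may be technical.

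LIF binds a receptor made of LIFR and gp130 (the product of Il6st) and activates the transcription factor STAT3. In mouse ES cells grown in serum, STAT3 keeps factors of naive pluripotency such as Klf4 and Tfcp2l1 expressed, and the feedback inhibitor Socs3 is one of its direct targets. Cells deprived of LIF leave the naive state, pass through a formative state that resembles the epiblast after implantation, and go on to differentiate. HDAC1 and HDAC2 are the catalytic subunits of the SIN3, NuRD and CoREST complexes, which remove acetyl groups from histones.

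The direction of every value below rests on one of 2 sample namings. The table of processed intensities was keyed by sample, whereas the columns of the non-normalized table were named after samples whose values they did not hold. Each of its 12 columns had the rank order of 1 other sample of the processed table (Spearman's rho of 1, against at most 0.836 otherwise). The 2 namings gave all 12 columns the same genotype, but culture and replicate number matched for 0 of 12. Values are given under the naming by sample. Under the other naming every change without LIF would have the opposite sign.

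Arrays of deleted cells without LIF had raw median intensities of 91.2 to 167, against 102 to 107 with LIF, and 35.3% to 38.2% of probes were detected without LIF, against 38.2% to 41.8% with LIF. Correlations of log2 intensities were 0.976 to 0.993 between deleted arrays of the same culture and 0.962 to 0.978 between the cultures. The first principal component of all 12 arrays (38.7% of the variance) separated the cultures, and the second (27.5%) placed every deleted array above every wild type array. Within every group the array numbered 1 lay highest on the second component. No probe carried the symbol Hdac1, so the deletion could not be checked on its main target. Hdac2 differed by -0.09 ± 0.12 between the cultures (log2 fold change ± SE, without over with LIF, adjusted p = 0.68). Both cultures carried the same genotype, so this value is no check of the deletion. Of 11 ES cell markers 10 were measured, and their summed linear intensity was 38270 to 41270 without LIF, against 45900 to 49750 with LIF. None of 5 early neuroectoderm markers (Sox1, Pax6, Neurog2, Hes5, Olig2) on the array was measurable in any group, nor were the streak and mesoderm markers Mixl1, Mesp1, Tbx6 and Hand1.

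Withdrawal of LIF for 4 days changed 1027 of 9527 genes in deleted cells (10.8%; limma, Benjamini-Hochberg adjusted p under 0.05 over all genes), of which 479 rose (5.03%) and 548 fell (5.75%). Throughout, "rose" and "fell" describe cells without LIF relative to cells with LIF, and a log2 fold change carries its moderated standard error. Of the called genes 149 changed by at least 2-fold, 61 of them higher and 88 lower. The 3 arrays without LIF lay wholly above or below the 3 arrays with LIF for 2984 genes (31.3%), and for 1025 of the 1027 called. The median log2 fold change over all genes was -0.0231. Same-numbered arrays of the 2 cultures varied together, and with the replicate number as a block 1849 genes passed (19.4%), all 1027 among them. Of these, 854 were higher and 995 lower. At an unadjusted p under 0.05, 2318 of the 9527 genes passed. Counts given below for a list at that level or with the block are to be read beside these. Without deleted array 2 of the cells without LIF 659 genes passed, and without deleted array 1, 2 or 3 of the cells with LIF 573, 568 and 652 passed. Rises made up 46.6% of calls with quantile normalization. They made up 19.1% of 362 calls when the non-normalized arrays were background-corrected alike, put on a log2 scale and scaled to their medians instead. That scaling kept the sign of every named gene but ended 84 of the 157 calls among them, those of Klf2, Gbx2, Nanog, Dnmt3b, Etv4, Cldn3, Id2, Ifitm3, Irf1, Gja1, Fgfr2, Krt19, Ccn1, Ccnd2, Dlk1, Pou3f1, Tpm1, Smad3, Sox11, Serpinh1, Sparc, Slc40a1, Tdgf1, Stmn2, Tex11, Esrp1 and Rrm2 included. Because these are bulk RNA samples, fewer cells of a type and less RNA per cell cannot be told apart in any result below.

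**Figure D1:**
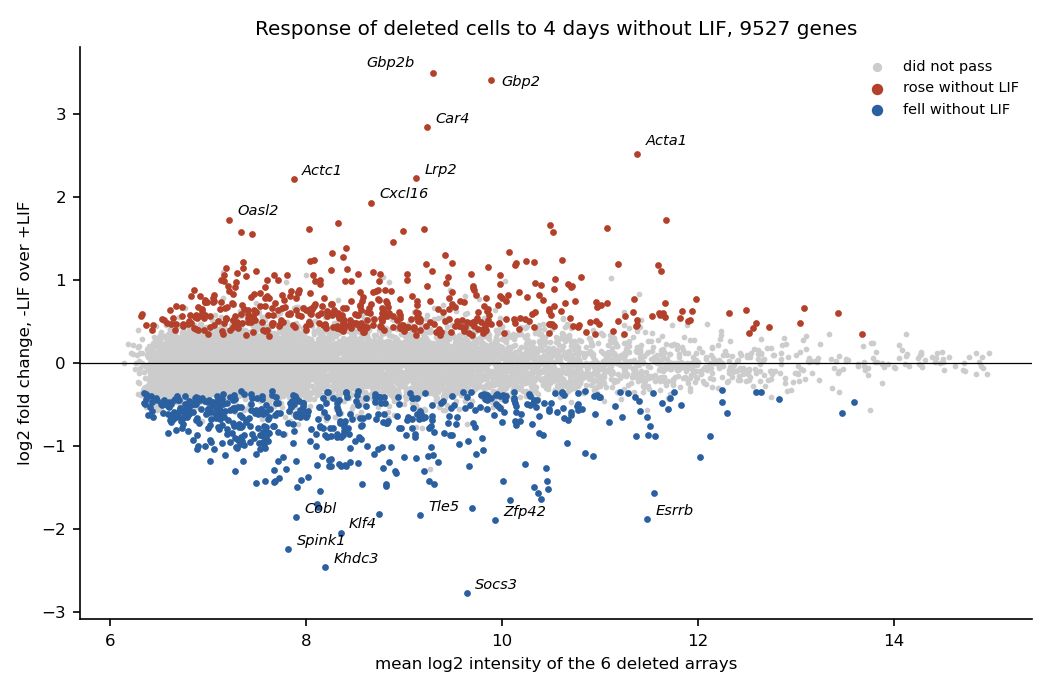
Log2 fold change of each gene (deleted cells without LIF over with LIF, vertical axis) against its mean log2 intensity on the 6 deleted arrays (horizontal axis). Red points are the 479 genes that rose and blue points the 548 that fell; the 8 largest changes each way are named, from Gbp2b at 3.49 to Socs3 at -2.77.

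The largest fall in the whole table was that of Socs3, the STAT3-induced inhibitor of LIF signalling. Its log2 intensity was 8.02, 8.13 and 8.61 without LIF, against 10.95, 11.18 and 10.96 with LIF. The arrays of the 2 cultures were far apart, and the fall was 6.84-fold (log2 fold change -2.77 ± 0.16, adjusted p = 2.1e-07). Of 23 measured genes in a list of LIF and STAT3 response genes 10 fell and 0 rose, with a median log2 fold change of -0.383 (over all genes tested, 5.75% fell and the median was -0.0231). At an unadjusted p under 0.05, 14 of the 23 passed, beside 2318 of 9527 over all genes.

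The called members were targets and downstream factors rather than parts of the receptor. Klf4, a Krüppel-like factor induced by STAT3, had log2 intensities of 6.90, 7.37 and 7.73 without LIF, against 9.13, 9.72 and 9.29 with LIF (4.13-fold lower, adjusted p = 7.1e-05). Its 2 further probes gave log2 fold changes of -1.64 and -1.82. Tfcp2l1, another STAT3 target that sustains the naive state, was very even between replicates, with 10.16, 10.20 and 10.20 without LIF, against 11.17, 11.18 and 11.11 with LIF (log2 intensity). Its log2 fold change was -0.97 ± 0.11 (adjusted p = 9.8e-05). Also falling were Sgk1, a serum-regulated kinase (-1.56 ± 0.24), Icam1, a cell adhesion molecule (-1.57 ± 0.22), Mras, a Ras-family GTPase (-1.30 ± 0.14), and the transcription factors Klf2 (-1.43 ± 0.27), Tbx3 (-1.24 ± 0.12) and Gbx2 (-1.43 ± 0.34). These log2 fold changes had adjusted p-values from 2.6e-05 to 0.016. Gbx2 did not pass without deleted array 2 of the cells without LIF or without array 2 or 3 of those with LIF (highest adjusted p = 0.069). One of 2 further Tbx3 probes gave -1.38 and the other 0.0035. A further Mras probe gave -0.85 (adjusted p = 0.072).

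The signal transducers themselves did not pass. Stat3 had log2 intensities of 9.60, 9.34 and 9.38 without LIF, against 9.71, 9.62 and 9.36 with LIF, and the cultures overlapped (log2 fold change -0.13 ± 0.15, adjusted p = 0.68). Il6st, encoding gp130, differed by 0.12 ± 0.13 (adjusted p = 0.65). Lifr differed by -0.26 ± 0.16 (adjusted p = 0.37) and was detected on 1 of 3 arrays without LIF and on 3 of 3 with LIF. Klf5 differed by -0.47 ± 0.20 (adjusted p = 0.16), and with the replicate block it passed (adjusted p = 0.0092).

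The promoter of Socs3 is printed because this gene fell most. It covers the 250 bases before the RefSeq start at chr11:117969367-117969616, minus strand, GRCm38.p6, and capitals mark the match to the STAT-type motif TTCNNNGAA, which reads the same on both strands and begins 154 bases before the start.
Socs3: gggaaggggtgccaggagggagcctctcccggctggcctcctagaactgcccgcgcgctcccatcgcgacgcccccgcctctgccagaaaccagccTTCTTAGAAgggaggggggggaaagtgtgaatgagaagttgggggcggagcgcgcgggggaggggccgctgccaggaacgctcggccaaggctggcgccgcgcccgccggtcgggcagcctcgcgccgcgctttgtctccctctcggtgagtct
The motif was found in 3 of 18 LIF and STAT3 response genes with a promoter in the table (Icam1, Sgk1 and Socs3), and in 538 of 7758 promoters of all genes tested (6.93%). It stood in 9.68% of promoters of genes that fell and in 6.12% of those of genes that rose.

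**Figure D2:**
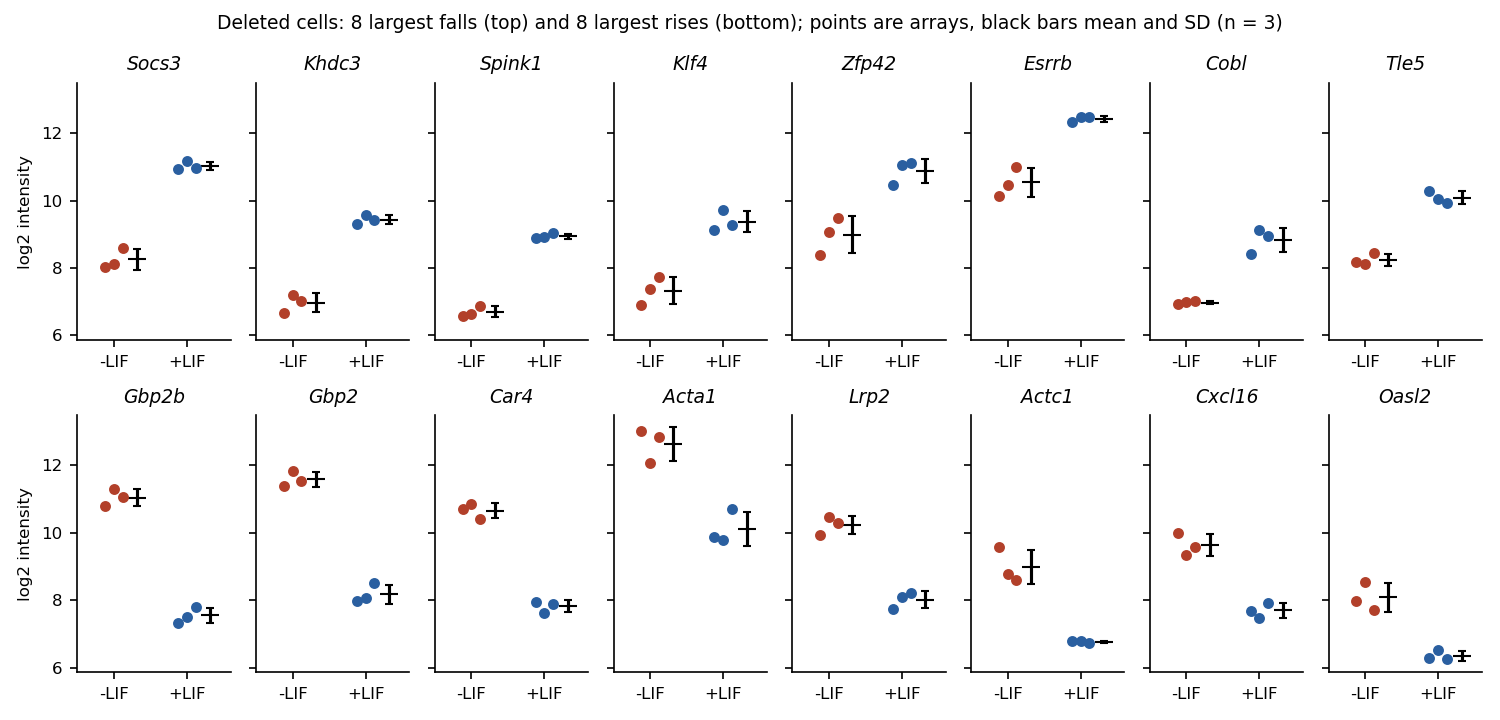
Log2 intensity (vertical axis) of the 8 genes with the largest falls (upper row) and the 8 with the largest rises (lower row) on each deleted array, 3 without LIF (red, left) and 3 with LIF (blue, right); black bars give mean and SD. In all 16 genes the 2 cultures do not overlap, and Socs3 is at 8.02 to 8.61 without LIF, against 10.95 to 11.18 with LIF.

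Of 22 measured naive pluripotency genes 16 fell and 0 rose, beside 5.75% lower and 5.03% higher over all genes. The median log2 fold change was -0.963, against -0.0231 over all genes. All 22 had a negative log2 fold change, and 21 had cultures that did not overlap, beside 31.3% of all genes. Esrrb, an orphan nuclear receptor at the centre of the naive network, had log2 intensities of 10.15, 10.48 and 11.00 without LIF, against 12.33, 12.47 and 12.47 with LIF (3.69-fold lower, adjusted p = 1.1e-05). Zfp42, also called Rex1 and the usual reporter of the naive state, had 8.39, 9.07 and 9.48 without LIF, against 10.47, 11.07 and 11.10 with LIF (log2 intensity; 3.72-fold lower, adjusted p = 0.0008). In both genes array 1 was the lowest and array 3 the highest of the cells without LIF. Tcl1, an AKT co-activator, fell 2.79-fold with little spread, at 8.06, 8.10 and 8.07 without LIF, against 9.62, 9.59 and 9.45 with LIF (adjusted p = 1.4e-06).

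Further naive genes that fell had other roles. Fbxo15, an Oct4 and Sox2 target, changed by -1.49 ± 0.13, and Jam2, a junctional adhesion molecule, by -1.42 ± 0.20. Nr5a2, a nuclear receptor that binds the Oct4 promoter, changed by -0.96 ± 0.14 (log2 fold changes, adjusted p at most 0.00054 for each gene). Further probes of Jam2 gave smaller changes of -0.91 to -0.42, and that of Nr5a2 gave -0.58. Nanog was uneven, with log2 intensities of 10.15, 11.19 and 11.43 without LIF, against 11.85, 11.82 and 11.74 with LIF. Array 1 without LIF lay lowest; the fall was -0.88 ± 0.26 (adjusted p = 0.046), and the call was lost without any 1 of 9 arrays (highest adjusted p = 0.13). Prdm14, a repressor of DNA methylation in naive cells, was not well above background on any array without LIF and was at least 1.05-fold lower there (adjusted p = 0.039, up to 0.16 without 1 array). Fgf4 differed by -0.37 ± 0.21 (adjusted p = 0.32) and Dppa3, also called Stella, by -0.06 ± 0.15 (adjusted p = 0.86).

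Of 12 measured core and general pluripotency genes 4 fell and 0 rose, with a median log2 fold change of -0.259. Over all genes 5.75% fell and 5.03% rose, with a median of -0.0231. Pou5f1, which encodes OCT4, had log2 intensities of 10.03, 10.03 and 9.76 without LIF, against 10.70, 10.81 and 10.53 with LIF. This was a log2 fold change of -0.74 ± 0.12 (adjusted p = 0.0014). Sox2, its partner, changed by -0.87 ± 0.18 (adjusted p = 0.0067), and its further probe gave -0.39. Tdgf1, the Nodal co-receptor Cripto, changed by -1.42 ± 0.32 (adjusted p = 0.012), or 0.051 without array 3 of the cells with LIF.

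Of 13 measured genes of the formative and primed epiblast 5 rose and 1 fell, and the median log2 fold change was 0.403. Beside this, 5.03% rose and 5.75% fell over all genes, with a median of -0.0231. Pou3f1, also called Oct6 and an early factor of the formative state, had log2 intensities of 9.01, 9.03 and 8.81 without LIF, against 7.72, 7.96 and 8.22 with LIF. Its log2 fold change was 0.98 ± 0.18 (adjusted p = 0.0026). Dnmt3b, a de novo DNA methyltransferase induced on exit from naive pluripotency, had 12.29, 12.59 and 12.21 without LIF, against 11.43, 11.73 and 11.64 with LIF (log2 fold change 0.76 ± 0.16, adjusted p = 0.0071). Sox4, Cldn6 and Sall2 also rose, by 0.60 ± 0.13, 0.50 ± 0.14 and 0.40 ± 0.10, and each lost its call without at least 2 of the 12 arrays taken singly (highest adjusted p 0.052, 0.15 and 0.082). Etv4, an ETS factor downstream of FGF signalling that the list also holds, fell (log2 fold change -1.24, adjusted p = 0.0042).

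Otx2, the homeobox factor that drives the formative programme, did not pass. Its log2 intensities were 9.84, 9.96 and 9.40 without LIF, against 9.18, 10.20 and 8.83 with LIF, with array 2 with LIF above all others. The log2 fold change was 0.33 ± 0.27 (adjusted p = 0.50), and without array 2 of the cells with LIF it was 0.73 (adjusted p = 0.04). Fgf5, Dnmt3a, the streak gene Mixl1, the endoderm genes Gata4 and Sox17 and the trophoblast gene Cdx2 were not detected on all 3 arrays of any group and were not tested.

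**Figure D3:**
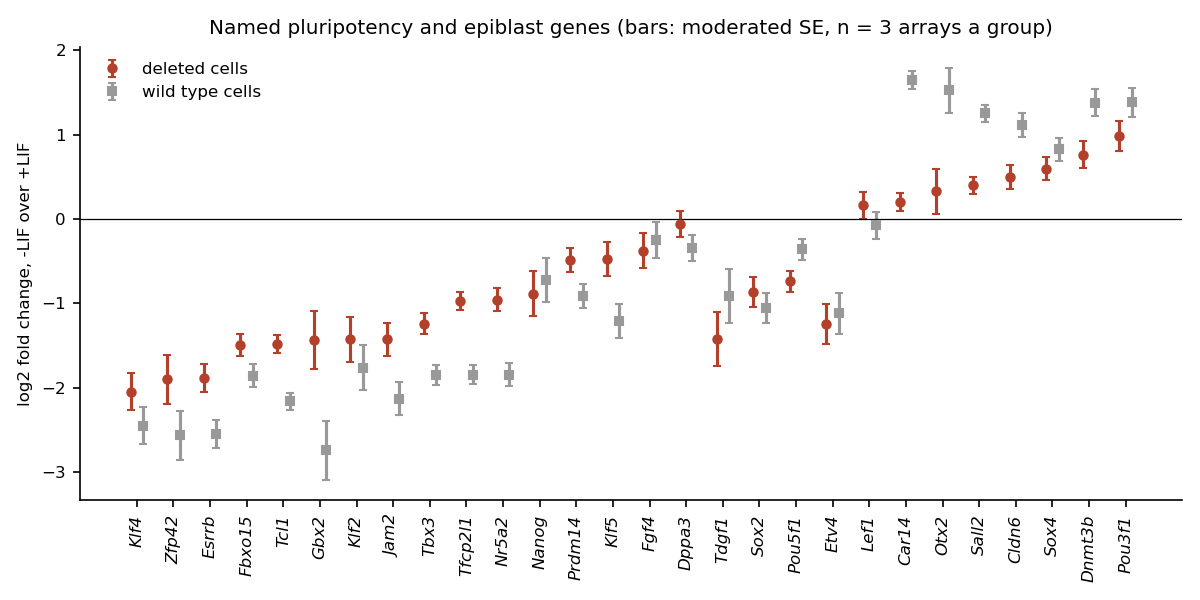
Log2 fold change without LIF over with LIF (vertical axis) of named naive, core and epiblast genes in deleted cells (red circles) and wild type cells (grey squares); bars are moderated standard errors, n = 3 arrays a group. Klf4, Zfp42 and Esrrb stand at -1.89 to -2.04 in deleted cells, against -2.45 to -2.56 in wild type cells, and Otx2 at 0.33 in deleted cells, against 1.53 in wild type cells.

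In lists of differentiating lineages, genes moved both ways, beside 5.03% higher and 5.75% lower over all genes. Of 13 measured genes of primitive streak and mesoderm 0 rose and 1 fell (Wnt3a, -0.93 ± 0.15, adjusted p = 0.00093). At an unadjusted p under 0.05 2 of them passed, beside 2318 of 9527 over all genes. Eomes differed by -0.04 ± 0.17 (adjusted p = 0.91). The Nodal inhibitors Lefty1 and Lefty2 were far from even, with log2 intensities of 8.66 and 8.03 on array 2 without LIF, against 6.25 to 7.22 on the other 2 arrays without LIF and 6.11 to 7.74 with LIF. Neither passed (adjusted p = 0.74 and 0.70), and without that array their log2 fold changes were -0.18 and -0.16. Of 8 measured neuroectoderm genes 3 rose and 3 fell, with Sox11, a factor of neural progenitors, up by 1.06 ± 0.16 and Stmn2, a neuronal microtubule regulator, at -0.86 ± 0.14 (log2 fold changes, adjusted p = 0.0009 and 0.0015).

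Primitive and visceral endoderm genes split as well, with 6 of 19 higher and 3 lower, beside 5.03% higher and 5.75% lower over all genes. Lrp2, the endocytic receptor megalin, had log2 intensities of 9.95, 10.47 and 10.30 without LIF, against 7.73, 8.10 and 8.23 with LIF (4.67-fold higher, adjusted p = 7.9e-05). Dab2, an endocytic adaptor that binds megalin, rose by 1.00 ± 0.11 (adjusted p = 8.7e-05), although 1 of its 2 further probes gave 0.17. Lama1, a laminin chain of the basement membrane, fell, at 7.36, 7.18 and 7.23 without LIF, against 8.91, 8.97 and 9.11 with LIF (log2 intensity; log2 fold change -1.74 ± 0.10, adjusted p = 2.8e-07). Of 10 defining endoderm markers 3 were measurable (Gata6, Pdgfra and Dab2), and their summed linear intensity was 554 to 635 without LIF, against 382 to 393 with LIF. Only Dab2 of the 3 was called, and Gata6 differed by 0.16 ± 0.14 (adjusted p = 0.57). Gata4, Sox17, Sox7, Foxa2, Afp, Ttr and Cubn were not detected on all 3 arrays of any group, and the part of such cells in the rises was not tested.

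In the epithelial list 6 of 27 genes rose and 1 fell, and in the trophoblast list 5 of 15 rose and 1 fell, beside 5.03% higher and 5.75% lower over all genes. Cldn3 and Cldn4, tight junction proteins, rose with log2 fold changes of 0.88 ± 0.12 and 0.81 ± 0.17 (adjusted p = 0.00027 and 0.0084). Krt19, a keratin of simple epithelia, had log2 intensities of 9.51, 9.67 and 9.92 without LIF, against 8.45, 8.89 and 8.99 with LIF (log2 fold change 0.93 ± 0.15, adjusted p = 0.0012). Esrp1, an epithelial splicing regulator, rose by 0.79 ± 0.13 (adjusted p = 0.0017), and Zeb1, a repressor of epithelial genes, fell (log2 fold change -0.60, adjusted p = 0.025), or did not pass without 1 of 4 arrays (up to 0.085). Fgfr2, the FGF receptor of trophoblast and epithelia, rose by 1.30 ± 0.20 (adjusted p = 0.00095), and Tfap2c, a factor shared by trophoblast and naive cells, fell (log2 fold change -1.09, adjusted p = 0.00015). Of 7 trophoblast markers 2 were measurable (Gata3 and Krt7), with a summed linear intensity of 462 to 765 without LIF, against 436 to 507 with LIF. Only Gata3 was called (adjusted p = 0.049, up to 0.17 without 1 array).

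The 2 largest rises in the table were those of guanylate-binding proteins, interferon-inducible GTPases. Gbp2b had log2 intensities of 10.78, 11.29 and 11.06 without LIF, against 7.33, 7.52 and 7.80 with LIF (11.3-fold higher, adjusted p = 5.7e-06). Gbp2 had 11.40, 11.83 and 11.54 without LIF, against 7.98, 8.06 and 8.51 with LIF (log2 intensity; 10.6-fold higher, adjusted p = 1.4e-06). The 2 genes are close paralogs and their probes may share signal; a further Gbp2 probe gave a log2 fold change of 0.87. Gbp3 rose by 1.58 ± 0.18 (adjusted p = 0.00012).

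Of 22 measured interferon-stimulated genes 11 rose and 3 fell, and the median log2 fold change was 0.444, beside 5.03% higher, 5.75% lower and a median of -0.0231 over all genes. Oasl2, a relative of the antiviral oligoadenylate synthetases, had log2 intensities of 7.99, 8.55 and 7.71 without LIF, against 6.28, 6.53 and 6.27 with LIF (adjusted p = 0.00027). With LIF it was detected on 1 of 3 arrays, and its values lay about the detection floor. B2m, the light chain of MHC class I, had 10.95, 10.70 and 10.91 without LIF, against 9.65, 9.59 and 9.65 with LIF (log2 fold change 1.23 ± 0.10, adjusted p = 8.45e-06). Ifitm3, a membrane protein that restricts virus entry, rose by 0.96 ± 0.14 (adjusted p = 0.00047), and Bst2, the tethering factor tetherin, by 0.76 ± 0.13 (adjusted p = 0.0022). Irf1, a transcription factor of the interferon response, rose by 1.18 ± 0.34 (adjusted p = 0.037), but not without any 1 of 6 arrays (up to 0.16), and its 3 further probes gave 0.26 to 1.04. Isg15, Irf7, Mx1, Ifit1 and Ifit3, standard genes of a type I interferon response, were not among the measured genes. Outside the list, Cxcl16, a chemokine, rose 3.82-fold (log2 fold change 1.93, adjusted p = 2.6e-05), while a further probe gave 0.60.

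The promoters of Gbp2b and Gbp2 are shown as those of the genes that rose most, in the 250 bases before the RefSeq start on the plus strand of GRCm38.p6, at chr3:142594597-142594846 and chr3:142620413-142620662. Capitals mark a match to the motif of interferon-stimulated response elements, GAAA repeated after any 2 bases, searched on both strands and here read on the opposite one, beginning 137 and 59 bases before the start.
Gbp2b: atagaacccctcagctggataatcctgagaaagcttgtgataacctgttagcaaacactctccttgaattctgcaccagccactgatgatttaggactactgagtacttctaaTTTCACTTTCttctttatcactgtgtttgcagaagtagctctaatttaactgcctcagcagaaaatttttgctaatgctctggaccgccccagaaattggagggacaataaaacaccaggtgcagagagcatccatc
Gbp2: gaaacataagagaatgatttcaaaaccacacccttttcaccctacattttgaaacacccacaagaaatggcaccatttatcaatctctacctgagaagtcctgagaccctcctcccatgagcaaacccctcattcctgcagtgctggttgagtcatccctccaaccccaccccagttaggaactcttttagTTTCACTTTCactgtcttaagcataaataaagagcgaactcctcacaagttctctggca
Both matches were the same 10 letters, TTTCACTTTC. Of 20 interferon-stimulated genes with a known promoter 11 held the motif, against 232 of 7758 promoters of all genes tested (2.99%). The motif stood in 4.59% of promoters of genes that rose and in 4.05% of those of genes that fell. The Oasl2 window held no match.

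The alpha-actins were among the genes with the largest rises. Of 22 measured genes of muscle and contractile cells 12 rose and 2 fell, with a median log2 fold change of 0.574. Beside this, 5.03% rose and 5.75% fell over all genes. Acta1, skeletal alpha-actin, had log2 intensities of 13.01, 12.08 and 12.84 without LIF, against 9.87, 9.78 and 10.71 with LIF (5.75-fold higher, adjusted p = 9.8e-05). Actc1, cardiac alpha-actin, had 9.58, 8.77 and 8.61 without LIF, against 6.78, 6.78 and 6.75 with LIF (log2 intensity; 4.65-fold higher, adjusted p = 0.00017). Actc1 was near the detection floor with LIF on all 3 arrays, which compresses its fold change. Acta2, smooth muscle alpha-actin, rose by 1.57 ± 0.27 (adjusted p = 0.0019). The 3 actins are close in sequence and open to cross-hybridisation, and further probes of Actc1 and Acta2 gave smaller log2 fold changes of 0.58 to 1.37.

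The list also held proteins that bind or move the actin filament. Tpm1, a tropomyosin, had log2 intensities of 12.15, 12.68 and 12.79 without LIF, against 10.43, 10.69 and 11.33 with LIF (3.3-fold higher, adjusted p = 0.0017). Myl9, the regulatory light chain of non-muscle and smooth muscle myosin, had 9.80, 8.87 and 8.85 without LIF, against 7.50, 7.36 and 7.61 with LIF (log2 intensity; 3.21-fold higher, adjusted p = 0.00042). Csrp1, a LIM protein of the cytoskeleton, rose by 1.21 ± 0.16 (adjusted p = 0.0003), and Pdlim3, an actinin-binding protein outside the list, by 1.61 ± 0.10 (adjusted p = 6.5e-07). The 2 members that fell were myosin light chains, Myl4 at -1.65 and Mylpf at -1.12 (log2 fold changes, adjusted p = 0.0043 and 0.0013). Array 1 without LIF was the highest of its group for Acta1, Actc1 and Myl9.

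Promoters of 3 of these genes are printed because they share a motif, in the 250 bases before the RefSeq start (GRCm38.p6). They lie at chr8:123894776-123895025, minus strand (Acta1), chr2:114052876-114053125, minus strand (Actc1), and chr2:156775214-156775463, plus strand (Myl9). Capitals mark a CArG box, the recognition motif of serum response factor, searched on both strands and beginning 73, 47 and 161 bases before the start.
Acta1: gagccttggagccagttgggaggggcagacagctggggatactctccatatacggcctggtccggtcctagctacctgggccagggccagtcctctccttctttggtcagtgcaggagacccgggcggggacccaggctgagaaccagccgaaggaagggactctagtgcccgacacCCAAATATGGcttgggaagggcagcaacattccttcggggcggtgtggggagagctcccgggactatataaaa
Actc1: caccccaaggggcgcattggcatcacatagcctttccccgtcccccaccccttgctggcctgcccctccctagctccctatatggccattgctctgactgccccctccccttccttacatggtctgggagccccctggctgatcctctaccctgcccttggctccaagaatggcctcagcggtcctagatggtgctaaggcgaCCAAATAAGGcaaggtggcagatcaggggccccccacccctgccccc
Myl9: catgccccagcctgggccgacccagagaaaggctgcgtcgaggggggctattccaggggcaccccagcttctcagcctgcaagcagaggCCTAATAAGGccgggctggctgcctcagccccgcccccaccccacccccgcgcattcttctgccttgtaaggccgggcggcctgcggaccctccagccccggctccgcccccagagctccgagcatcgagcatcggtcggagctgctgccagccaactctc
A CArG box was found in 6 of 20 contractile genes with a promoter in the table (Acta1, Actc1, Cnn2, Myl3, Myl7 and Myl9). It was found in 122 of 7758 promoters of all genes tested (1.57%), in 4.85% of those of genes that rose and in 1.13% of those of genes that fell. The Acta2 window held no match.

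Stromal and matrix genes moved both ways. In the fibroblast and stromal list 6 of 15 rose and 1 fell. In the list of matrix remodelling and YAP targets 7 of 32 rose and 2 fell (13 and 3 with the replicate block). Over all genes 5.03% rose and 5.75% fell, and 19.4% passed with the block. Of the 7 stromal calls 2 passed without each array in turn, and of the 9 matrix and YAP calls 4. Ccn1, a matricellular target of YAP, had log2 intensities of 7.54, 7.95 and 8.03 without LIF, against 6.64, 6.72 and 6.90 with LIF (log2 fold change 1.09 ± 0.21, adjusted p = 0.004), while a further probe gave 0.26. Serpinh1, a collagen chaperone, rose by 0.74 ± 0.13 and Sparc, a matrix glycoprotein, by 0.69 ± 0.11 (adjusted p = 0.0021 and 0.0015). Further Sparc probes gave 0.24, which did not pass, and 0.79, which did. Timp1, an inhibitor of matrix metalloproteases, fell (log2 fold change -1.14, adjusted p = 0.00021). Of 10 defining fibroblast markers 5 were measurable; Col1a2, Col3a1, Dcn, Lum and Postn were not. The summed linear intensity of the 5 was 829 to 1135 without LIF, against 1277 to 1381 with LIF. Only 1 of them, Thy1, was called, and it fell (adjusted p = 0.048, up to 0.17 without 1 of 7 arrays). The part of such cells in the rises was not tested.

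Of 17 measured germline genes 7 fell and 1 rose, with a median log2 fold change of -0.43. Over all genes 5.75% fell and 5.03% rose, with a median of -0.0231. Stra8, which licenses meiosis, was not well above background on any array without LIF, against log2 intensities of 7.42, 7.40 and 7.41 with LIF, and was at least 1.84-fold lower without LIF (adjusted p = 0.00023). Dazl, an RNA-binding protein of germ cells, fell (log2 fold change -0.74, adjusted p = 0.0045), as did Piwil2, a piRNA-binding protein (-0.65, adjusted p = 0.0023), and Tex11, a meiotic crossover protein (-0.78, adjusted p = 0.00093). Of 5 measured 2-cell-like genes 3 fell and 0 rose, and 4 of 5 passed at an unadjusted p under 0.05 (2318 of 9527 over all genes). Zscan4c fell (log2 fold change -0.99, adjusted p = 0.0022); its family members are alike in sequence and may share signal. Outside these lists, Khdc3, an oocyte and embryo protein also called Filia, had 6.66, 7.21 and 7.04 without LIF, against 9.30, 9.57 and 9.41 with LIF (log2 intensity; 5.5-fold lower, adjusted p = 2.1e-07).

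Of 18 measured imprinted genes 8 rose and 2 fell, with a median log2 fold change of 0.246, beside 5.03% higher and 5.75% lower over all genes. Peg3, a paternally expressed zinc finger gene, had log2 intensities of 9.47, 9.65 and 9.74 without LIF, against 8.11, 8.10 and 8.28 with LIF (log2 fold change 1.46 ± 0.15, adjusted p = 5.6e-05). Igf2, the fetal growth factor, had 12.05, 12.18 and 12.31 without LIF, against 10.92, 10.99 and 11.09 with LIF (log2 fold change 1.18 ± 0.13, adjusted p = 8.1e-05). Dlk1, a non-canonical Notch ligand, rose by 0.67 ± 0.10 (adjusted p = 0.00093), while a further probe gave 0.33 and did not pass. Those that fell were Ddc, which encodes dopa decarboxylase (-1.28 ± 0.21, adjusted p = 0.0013), and Slc22a18, a transporter (-0.84 ± 0.18, adjusted p = 0.0078).

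Among enzymes of DNA methylation, Tet1, which oxidises 5-methylcytosine, had log2 intensities of 9.24, 9.02 and 8.88 without LIF, against 10.31, 10.32 and 10.22 with LIF (2.36-fold lower, adjusted p = 0.00022). Dnmt3b rose, as given above, and Dnmt3l, a cofactor of the de novo enzymes, differed by -0.35 ± 0.14 (adjusted p = 0.13), while its further probe passed at -0.52 (adjusted p = 0.044). Of 13 measured genes of this machinery 1 rose and 2 fell, beside 5.03% higher and 5.75% lower over all genes.

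Further signalling lists held calls in both directions, beside 10.8% called over all genes: 11.1% of the FGF and ERK list, 25% of the Nodal, Activin and BMP list and 23.8% of the Wnt list were called. Of 18 FGF and ERK feedback genes 1 rose (Fgfr2, described above) and 1 fell (Etv4), or 5 and 1 with the replicate block. In the Nodal, Activin and BMP list 4 of 20 rose and 1 fell. Id2, a BMP-induced inhibitor of basic helix-loop-helix factors, had log2 intensities of 8.40, 9.18 and 8.89 without LIF, against 7.64, 7.62 and 7.84 with LIF (log2 fold change 1.12 ± 0.16, adjusted p = 0.00048). Smad3, a transducer of Nodal and Activin signals, rose by 0.80 ± 0.14 (adjusted p = 0.0026), and Nodal itself differed by -0.40 ± 0.28 (adjusted p = 0.44). In the Wnt list 2 of 21 rose, the ligand Wnt4 (0.53) and the repressor Tcf7l1 (0.60), and 3 fell, the ligand Wnt3a (-0.93), the receptor Fzd5 (-0.82) and the antagonist Sfrp1 (-0.49), given as log2 fold changes (6 and 4 with the block). Of these 5 calls that of Wnt3a held whichever array was left out, and the others reached adjusted p of 0.061 to 0.13. Further probes of Wnt4 (0.23) and Tcf7l1 (0.073) did not pass, while those of Fzd5 (-0.63) and Sfrp1 (-0.55) did.

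Of 33 measured histone deacetylases and complex partners 0 passed in either direction by limma, beside 10.8% over all genes. At an unadjusted p under 0.05 10 passed, beside 2318 of 9527 over all genes. With the replicate block 8 passed, 5 higher and 3 lower, beside 19.4% over all genes. The median log2 fold change of that list was 0.0171. Polycomb genes had 1 of 24 higher (Cbx6, log2 fold change 0.40) and 1 lower (Epop, -0.87), and both calls were lost without 1 of 3 arrays. Among 4 measured Hox, Cdx and Meis genes 0 passed by limma, and 0 passed at an unadjusted p under 0.05.

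Among cell cycle and metabolic lists 11.1% of DNA replication genes, 8.33% of mitosis genes and 9.76% of oxidative phosphorylation genes were called, beside 10.8% over all genes. Over all genes, 2318 of 9527 passed at an unadjusted p under 0.05 and 19.4% passed with the replicate block. Of 36 DNA replication and G1/S genes 4 fell and 0 rose (10 and 0 with the replicate block; 13 at an unadjusted p under 0.05), among them E2f1, the S-phase transcription factor (-0.77 ± 0.15, adjusted p = 0.0038), and Rrm2, a ribonucleotide reductase subunit (-0.55 ± 0.10, adjusted p = 0.003), whose further probe gave -0.10. Ccnd2, cyclin D2, was the 1 called member of 23 CDK inhibitors, G1 cyclins and p53 targets and rose by 1.06 ± 0.20 (adjusted p = 0.0038). Of 24 mitosis genes 1 rose (Cdc20, an activator of the anaphase-promoting complex, log2 fold change 0.57) and 1 fell (Birc5, survivin, -0.41). Of 41 oxidative phosphorylation genes 4 fell and 0 rose (8 and 0 with the block; 12 at an unadjusted p under 0.05), with a median log2 fold change of -0.163, and each of the 4 (Cox7a2, Atp5j, Atp5h and Uqcrc1, at -0.44 to -0.36) lost its call without at least 1 array (adjusted p up to 0.14). Glycolysis and hypoxia genes had 3 of 29 higher and 3 lower (20.7% called), with Pfkp, the platelet-type phosphofructokinase, lower (log2 fold change -1.27, adjusted p = 4.9e-05). Of these 6 calls only that of Pfkp held whichever array was left out, and the others reached adjusted p of 0.054 to 0.19. Of 16 sterol biosynthesis genes 0 passed by limma, and 2 passed at an unadjusted p under 0.05. Of 55 cytosolic ribosomal protein genes 1 fell (Rpl3l, log2 fold change -0.82) and 0 rose, with 4 at an unadjusted p under 0.05.

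For the integrated stress response and serine synthesis 2 of 30 genes were higher and 2 lower (13.3% called). For glutathione and redox 3 of 33 were higher and 3 lower (18.2%), or 8 and 5 with the block. For genes induced by HDAC inhibitors and metallothioneins 3 of 12 were higher and 1 lower (33.3%). Over all genes 10.8% were called, and 19.4% with the block. Calls that passed without each array in turn were 1 of 4, 4 of 6 and 1 of 4 in these lists. Gpx2, a glutathione peroxidase, fell (log2 fold change -1.32) and Gpx8, a related enzyme of the endoplasmic reticulum, rose by 0.99 ± 0.14 (adjusted p = 0.00047 and 0.00035). Nupr1, a stress-induced chromatin protein, fell (log2 fold change -1.19, adjusted p = 0.00017).

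**Figure D4:**
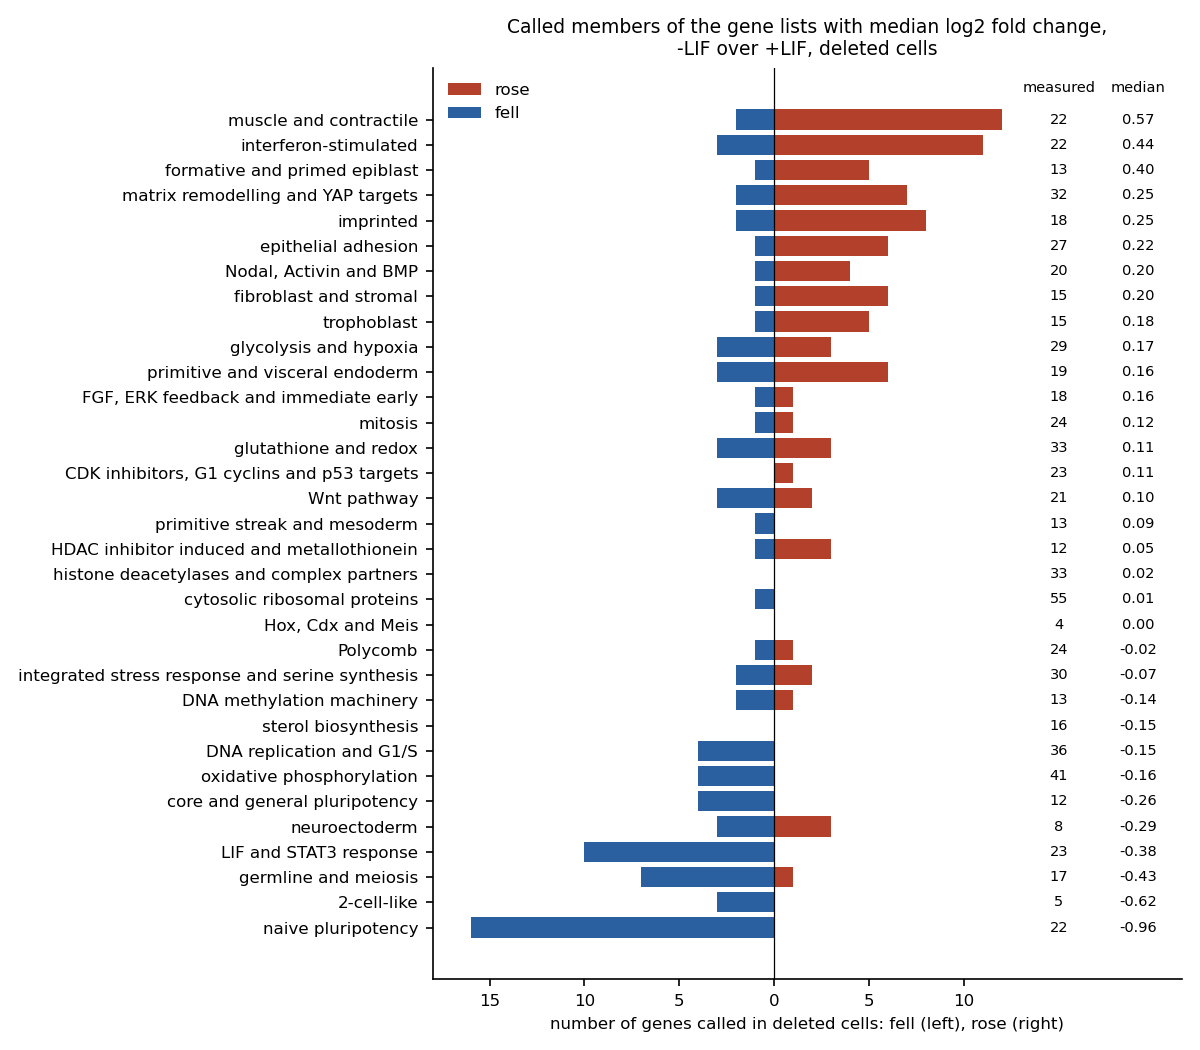
Number of genes in each list that rose (red, right) or fell (blue, left) in deleted cells without LIF over with LIF, with the number measured and the median log2 fold change printed beside each bar. Naive pluripotency (16 fell of 22) stands at one end and the contractile list (12 rose of 22) at the other.

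Some of the genes with the largest changes stood in no list. Car4, a membrane-bound carbonic anhydrase, had log2 intensities of 10.71, 10.85 and 10.42 without LIF, against 7.94, 7.62 and 7.90 with LIF (7.15-fold higher, adjusted p = 1.2e-07). Slc40a1, the iron exporter ferroportin, rose by 1.59 ± 0.23 (adjusted p = 0.0005), Gja1, the gap junction protein connexin 43, by 1.63 ± 0.27 (adjusted p = 0.0013), Podxl, the sialomucin podocalyxin, by 1.61 ± 0.14 (adjusted p = 1.1e-05) and Kif1a, an axonal kinesin, by 1.66 ± 0.12 (adjusted p = 2.1e-06). Among falls, Spink1, a trypsin inhibitor, had 6.58, 6.63 and 6.89 without LIF, against 8.88, 8.93 and 9.03 with LIF (log2 intensity; 4.74-fold lower, adjusted p = 4.9e-05). Tle5, a Groucho-family co-repressor, fell by 1.84, Urah, a urate pathway enzyme, by 1.75, Fam25c by 1.83, the homeobox gene Rhox10 by 1.70 and Fbxo2, a ubiquitin ligase subunit that binds glycoproteins, by 1.64 on the log2 scale (adjusted p at most 0.00048). Cobl, an actin nucleator, fell at its brightest probe (log2 fold change -1.86, adjusted p = 5.7e-06), while a further probe gave -0.22.

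Wild type cells answered LIF withdrawal with 2010 called genes (21.1%), of which 1054 rose and 956 fell, and the cultures did not overlap for 35% of genes. Of the 1027 genes called in deleted cells 790 were called in wild type cells too, 76.9% of the deleted and 39.3% of the wild type list, and 788 of them had the same direction. Another 237 were called in deleted cells only, and 216 of these had the same sign in wild type cells, so a call in one genotype alone is no difference between them. Across the 9527 genes the log2 fold changes of deleted and wild type cells had a Pearson correlation of 0.797 and a Spearman correlation of 0.698, a description across genes, which are not independent replicates; the 2 comparisons share no array. Of the 1027 genes called in deleted cells, 522 had a larger change of the same sign in wild type cells. Whatever the sign, the change was larger in wild type cells for 523 of the 790 called in both (66.2%). The deleted call chose the first set, and the wild type call helped to choose the second.

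The test of the difference itself, deleted minus wild type, passed for 5 genes (0.0525%), with 722 at an unadjusted p under 0.05. The strongest was Laptm5, a lysosomal membrane protein. It had log2 intensities of 10.57, 10.26 and 10.51 without LIF, against 10.73, 10.80 and 10.77 with LIF, in deleted cells, and of 9.17, 8.78 and 8.81 without LIF, against 11.18, 11.15 and 11.23 with LIF, in wild type cells. Its log2 fold change was -0.32 ± 0.12 in deleted cells and -2.27 ± 0.12 in wild type cells, a difference of 1.94 ± 0.17 (adjusted p = 0.00022). Car14, a carbonic anhydrase, changed by 0.20 ± 0.11 in deleted cells and 1.65 ± 0.11 in wild type cells (difference -1.44 ± 0.15, adjusted p = 0.0008). It was detected on 2 of 3 arrays of deleted cells without LIF and on 1 of 3 with LIF, and on all wild type arrays.

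The other 3 genes lay close to the threshold (adjusted p = 0.045 each). Tgm1, a transglutaminase, rose by 0.62 ± 0.16 in deleted cells and fell by 0.84 on the log2 scale in wild type cells. The Tgm1 rise did not pass without any 1 of 4 arrays (adjusted p up to 0.12). Npw, a neuropeptide precursor, fell by 0.57 in deleted cells and rose by 0.48 ± 0.11 in wild type cells, and it was not detected on all 12 arrays. Ccn2, a YAP target also called Ctgf, rose by 0.53 ± 0.16 in deleted cells and by 1.95 ± 0.16 in wild type cells. At a further Ccn2 probe the difference was -1.07 and did not pass (adjusted p = 0.53). Laptm5 and Car14 passed whichever of the 12 arrays was left out, and Tgm1, Npw and Ccn2 passed in 3, 2 and 2 of those 12 fits. The count was 2 to 9 over the same fits.

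Differences between genotypes in the pluripotency and LIF lists were as follows, deleted minus wild type. Over all genes, 722 of 9527 had a difference at an unadjusted p under 0.05, both directions together. In the naive list 10 of 22 genes had a positive difference at an unadjusted p under 0.05 and 0 a negative one, and the lowest adjusted p was 0.066. The median log2 fold change of the list was -0.963 in deleted cells and -1.56 in wild type cells. That lowest value belonged to Tfcp2l1, which changed by -0.97 ± 0.11 in deleted cells and -1.84 ± 0.11 in wild type cells (0.023 with the replicate block). In the LIF and STAT3 list 8 of 23 were positive and 0 negative at an unadjusted p under 0.05, with medians of -0.383 in deleted and -0.82 in wild type cells. In the core and general pluripotency list 1 of 12 was positive and 1 negative, with medians of -0.259 in deleted and -0.38 in wild type cells. In the formative list 0 were positive and 5 of 13 negative at that level, with medians of 0.403 in deleted and 0.828 in wild type cells. Car14 was a member of that list and passed. Otx2 rose in wild type cells (1.53 ± 0.27, adjusted p = 0.0012) and had a difference of -1.20 ± 0.38 (adjusted p = 0.48), and Fgf8, a growth factor of the epiblast and streak, changed by 0.30 ± 0.32 in deleted cells and 2.12 ± 0.32 in wild type cells (difference -1.83 ± 0.45, adjusted p = 0.25). For the leading contractile and Gbp genes the difference did not pass: the log2 fold changes were, for Acta1, 2.52 ± 0.29 in deleted and 2.45 ± 0.29 in wild type cells, and for Gbp2, 3.41 ± 0.24 in deleted and 2.66 ± 0.24 in wild type cells (adjusted p of the difference 0.99 and 0.64).

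**Figure D5:**
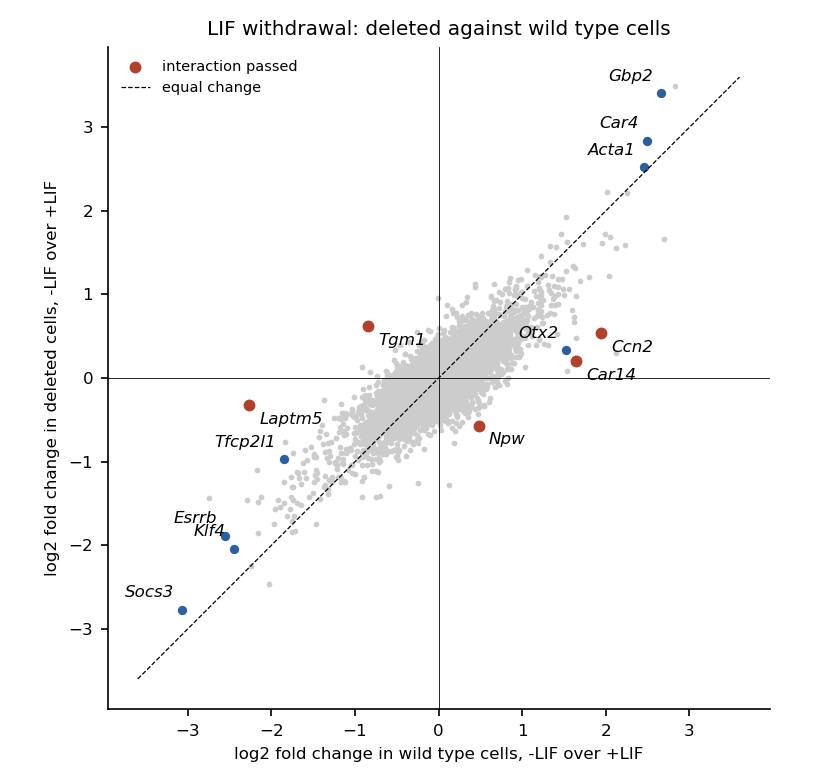
Log2 fold change without LIF over with LIF in deleted cells (vertical axis) against that in wild type cells (horizontal axis) for 9527 genes; the dashed line marks equal change. Red points are the 5 genes whose difference passed, with Laptm5 at -0.32 in deleted and -2.27 in wild type cells; blue points are other genes named in the text.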

How the data were processed

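Per the labels' protocols, biotin-labelled cRNA was hybridised to 1-colour Illumina mouse bead arrays; the submitters' processing notes name GenomeStudio, with settings not given in the sources used here. The deposited non-normalized table held, per the file headers, a linear intensity and a detection p-value for each of 45281 probes and array. The table keyed by sample held the authors' processed intensity on a linear scale, with 1 minimum (86.5) and 1 maximum (35095) shared by all columns. These processed intensities were background-corrected here (normexp, offset 50), put on a log2 scale and quantile-normalized. Detection p-values followed each array by rank order.

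A probe was kept if every array of some group detected it at p under 0.05 (15999 probes), and the brightest probe with 1 gene symbol stood for a gene (9527 genes; 34885 probes had 1 symbol, 18 several and 10378 none listed). Log2 values near the detection floor, 6.44 to 6.61, are compressed. Where a gene was undetected on all arrays of a group, "at least" folds use that floor. Using limma 3.58.1 in R 4.3.3, a mean for each of 4 groups was fitted across the 12 arrays (8 residual degrees of freedom; two-sided, Benjamini-Hochberg over all genes for each of 3 contrasts). Precision is limited by the number of arrays; the median SE of a log2 fold change was 0.134.

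Replicate numbers in the labels paired the deleted arrays: deviations of same-numbered arrays from their group means correlated at 0.57, 0.34 and 0.38, against at most 0.16 for other pairs. In data simulated for the deleted comparison with 9527 genes, the test recovered 6 of 50 genes at 1.3-fold, 27 of 50 at 1.5-fold, 47 of 50 at 2-fold and 50 of 50 at 4-fold, and 4 of 134 calls were false. The simulated noise was normal and independent for each gene and array, without the correlation of same-numbered arrays. Fewer genes were changed than were called in the real data. Recovery and the share of false calls may therefore differ in the real data.

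The members, gene lists, named-gene rule and tests were chosen with earlier results of these data known. The rule named the 15 largest rises and 15 largest falls among called genes without overlap, up to 8 called members of each list, 43 anchor genes (32 measurable) and the interaction genes, 175 genes in all. Promoters were RefSeq's (GRCm38.p6), matched by symbol for 7758 genes (81.4%), 1617 with several windows. Alternatives tried were the background correction, normalization, filter, probe rule, array weights, block, prior, the deleted arrays alone and leaving out each array.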

Additional observations from a re-analysis of the deposited data

Results flagged for a closer look

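The response to LIF withdrawal differed between deleted and wild type cells, by the limma test of the difference itself (deleted minus wild type, log2 fold change without LIF over with LIF), for 5 genes. The difference was 1.94 ± 0.17 for Laptm5 (adjusted p = 0.00022) and -1.44 ± 0.15 for Car14 (adjusted p = 0.0008), and both kept their sign and their call without each array in turn. Laptm5 passed under all 10 other settings tried and Car14 under 8 of 9, the exception being median scaling (adjusted p = 0.45). The difference was 1.46 ± 0.23 for Tgm1, -1.41 ± 0.23 for Ccn2 and -1.05 ± 0.16 for Npw (adjusted p = 0.045 each). These 3 kept their sign without each array in turn, with values of 1.27 to 1.61, -1.58 to -1.30 and -1.16 to -0.96, but their adjusted p reached 0.21, 0.23 and 0.21. In Tgm1 and Npw the deleted and wild type cells moved in opposite directions, but the Tgm1 rise in deleted cells did not pass without any 1 of 4 arrays.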

How the results depend on the processing

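The count of genes called in deleted cells was 1849 with the replicate block (1027 without it), 2184 with the 6 deleted arrays alone and the block, 1842 with array weights, 362 with median scaling and 149 at 2-fold or more; leaving out each array gave 568 to 1137. Without the 4 arrays numbered 1, a setting chosen after seeing the data, it was 1255, and other settings gave 720 to 1067. In wild type cells the count of 2010 became 3021 with the block, 3275 with array weights and 717 with median scaling. Same-numbered wild type arrays of the 2 cultures correlated at 0.52, -0.044 and 0.36, against up to 0.47 for other pairs, so the numbers did not clearly pair these cultures. Same-numbered deleted and wild type arrays correlated at 0.51, 0.3 and 0.38 with LIF (other pairs at most 0.16). Without LIF the values were 0.68, 0.51 and 0.27 (other pairs at most 0.41). The interaction count of 5 became 13 with the block, 8 without normexp, 1 with median scaling, 1 with the strict filter, 87 with array weights and 15 without the 4 arrays numbered 1, which was chosen after seeing the data; leaving out each array gave 2 to 9. Of 157 called genes the rule named, 100 passed without each of the 12 arrays, 72 under each of 13 other settings and 70 under all of these; median scaling ended 84 calls, and the cause was not tested. The block changed no call of a named gene in the main comparison except that of Klf5. Leaving out 1 array turned the sign of 5 named genes that did not pass: Hdac2 (-0.16 to 0.000303, positive without array 1 of the deleted cells without LIF), Eomes (-0.21 to 0.13), Lefty1 (-0.18 to 0.61) and Lefty2 (-0.16 to 0.72), each turned without array 2 of those cells, and Dppa3 (-0.18 to 0.059), turned without that array (0.038) or array 1 of the deleted cells with LIF (0.059). Of 84 further probes of called genes 61 gave the same call, 20 the same sign without a call and 3 the opposite sign (Slc38a2, Tbx3 and Wwtr1, the second at 0.0035). Genes with signals near background have understated fold changes.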
